A study of Mus musculus with 8 samples.

Results

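The 10 genes described here are non-coding host genes of small nucleolar RNAs (snoRNAs): Gas5, Snhg1, Snhg3, Snhg5, Snhg6, Snhg8, Snhg12, Snhg15, Snhg17 and Zfas1. They were taken by symbol from the primary chromosomes of a deposited expression table of 52778 rows, where each symbol stands on a single row. RNA was sequenced from ventricular tissue of mouse (Mus musculus) embryos at embryonic day 11.5. The cKO group holds 4 libraries from embryos labelled as cardiomyocyte-specific Rps19bp1 knockouts, made by joining floxed Rps19bp1 with the Xmlc2-Cre transgene (Rps19bp1 fl/fl; Xmlc2-Cre +/−), and the control group holds 4 libraries labelled control, whose alleles the labels do not spell out. Cre acts in cardiomyocytes only, so the other cells of the ventricle keep the gene, and the labels do not say whether a library came from 1 embryo or from several. The labels also name C57BL/6 WT as the genotype of all 8 libraries, and their extraction text speaks of cortical neurons and depletion of ribosomal RNA where the series text speaks of ventricles and an mRNA kit.

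Small nucleolar RNAs guide the chemical modification of ribosomal RNA in the nucleolus. Those with boxes C and D direct ribose methylation by fibrillarin, and those with boxes H and ACA direct pseudouridine formation by dyskerin. In mammals most of them lie in introns and are released as the host transcript is spliced. In many non-coding hosts the spliced RNA encodes no conserved protein and is degraded by nonsense-mediated decay during translation, and several hosts, Gas5 the best known, begin with the terminal oligopyrimidine (TOP) tract that ribosomal protein mRNAs carry at their 5′ end. The protein encoded by Rps19bp1 resides in the nucleolus, where it partners with Rps19, a protein of the small ribosomal subunit.

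The sequences of the snoRNAs show what these hosts carry. The table lists 32 snoRNA rows inside the 10 hosts on the same strand, 8 in Gas5, 8 in Snhg1, 4 in Snhg12, 3 in Zfas1, 2 each in Snhg3, Snhg5 and Snhg17, and 1 each in Snhg6, Snhg8 and Snhg15. Those with a Snora name, and long ones without a box D near the 3′ end, were classed as box H/ACA. By this rule 23 are of the box C/D class and 9 of the box H/ACA class. The first sequence is printed because its host is the member that changed, Snord78 because its row was the most abundant, the pair of Snord50 copies because they differ at 1 base (C50A, counted from the 5′ end of Snord50a), and the 3 Zfas1 snoRNAs because they show several guides in a single host. Sequences are from GENCODE M21 on GRCm38, 5′ to 3′, with the ACA box of Snora9 and the box C core TGATG and box D CTGA of the others in capitals.
Snora9 in Snhg15 (chr11:6528033-6528165, minus strand): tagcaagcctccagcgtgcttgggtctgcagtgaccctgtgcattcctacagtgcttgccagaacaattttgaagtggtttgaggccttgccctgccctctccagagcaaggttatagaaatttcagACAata
Snord78 in Gas5 (chr1:161036984-161037049, plus strand): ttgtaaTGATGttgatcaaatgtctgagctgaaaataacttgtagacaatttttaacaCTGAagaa
Snord50a in Snhg5 (chr9:88521529-88521600, minus strand): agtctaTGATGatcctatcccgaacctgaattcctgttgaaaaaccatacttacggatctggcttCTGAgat
Snord50b in Snhg5 (chr9:88521797-88521868, minus strand): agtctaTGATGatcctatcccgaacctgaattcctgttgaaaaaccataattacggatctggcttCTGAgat
Gm25878 in Zfas1 (chr2:167063473-167063565, plus strand): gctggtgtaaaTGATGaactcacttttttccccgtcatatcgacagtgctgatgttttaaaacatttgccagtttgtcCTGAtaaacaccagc
Gm23201 in Zfas1 (chr2:167064998-167065086, plus strand): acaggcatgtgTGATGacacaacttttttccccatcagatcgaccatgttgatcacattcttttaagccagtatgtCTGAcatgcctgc
Snord12 in Zfas1 (chr2:167065276-167065365, plus strand): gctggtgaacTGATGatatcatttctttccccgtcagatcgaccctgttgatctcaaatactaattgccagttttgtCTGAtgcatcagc

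The starts of the hosts were read from RefSeq (GRCm38.p6), which gives promoter windows of 250 bases before to 50 after the start for 9 of the 10 members, with none for Snhg6. A tract of a C followed by at least 5 bases that are each C or T, beginning within 5 bases of the start on the transcribed strand, was found in 3 of the 9 members (Gas5, Snhg8 and Snhg12). It was found in 44.8% of 58 ribosomal protein genes with an entry and in 11.9% of all 27025 genes with one. Among 11 other genes listed as TOP mRNAs with an entry it was found in 36.4%. The search thus left out many genes listed as carrying a tract, so its absence at a RefSeq start does not show that a host lacks one. The motif CACGTG, the E-box bound by Myc and related factors, which reads the same on both strands, was found in the window of Snhg15 alone among the 9, against 8.09% of all genes with an entry. The p53 half-site motif RRRCWWGYYY (R is A or G, W is A or T, Y is C or T) was searched on the same windows. Since it is its own reverse complement this covers both strands. It was found in 0 of the 9 members and in 9.55% of all genes with an entry. With 9 windows, neither this count nor that of the E-box sets the hosts apart from other genes. Full p53 sites and sites outside the windows were not searched. The windows of the 4 hosts with a tract or an E-box are given from 20 bases before the start to 30 after, with that tract or E-box in capitals; for Gas5 the window is that of its second RefSeq start.
Snhg15 (chr11:6528731-6528780, minus strand): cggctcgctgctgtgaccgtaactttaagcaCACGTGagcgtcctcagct
Gas5 (chr1:161035146-161035195, plus strand): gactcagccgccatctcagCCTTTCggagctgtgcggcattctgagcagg
Snhg8 (chr3:123508307-123508356, minus strand): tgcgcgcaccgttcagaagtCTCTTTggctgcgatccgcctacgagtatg
Snhg12 (chr4:132308658-132308707, plus strand): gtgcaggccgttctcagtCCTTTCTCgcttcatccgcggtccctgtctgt

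Values are TPM, a length-corrected unit in which a gene's value is its share of the transcripts in the library. TPM keeps no depth, so the number of reads behind a value is unknown and the errors given are between libraries. Rps19bp1 (chr15:80260614-80264306, minus strand) averaged 39.9 TPM ± 3.93 in control libraries against 14.96 TPM ± 3.14 in cKO libraries (SD, n = 4), with no overlap. The sum of 9 cardiomyocyte markers ran from 35049 to 39513 TPM and that of 8 neuronal markers from 5.47 to 14.1 TPM over the 8 libraries, with 6 of the neuronal markers under 1 TPM in every library. Between 15336 and 15752 rows per library reached 1 TPM, and 15541 rows with a mean of at least 1 TPM were tested. Transcripts of the mitochondrial chromosome took 14.2% ± 1.39 (SD, n = 4) of cKO and 11.9% ± 0.350 (SD, n = 4) of control libraries.

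All 10 hosts passed the filter on low values. One of them, Snhg15, was higher in cKO, and 9 did not pass the threshold of limma's test (adjusted p under 0.05). Over all 15541 tested rows 6.4% were called (994 rows), 336 of them (2.16% of the tested rows) as higher and 658 (4.23%) as lower. The split was 383 higher and 380 lower after quantile normalization, 383 and 419 after median-ratio scaling, and 392 and 394 after rescaling without mitochondrial and globin rows. The median log2 change of the 10 hosts was 0.06, against -0.02 over all tested rows. Without cKO replicate 1 the hosts' median was 0.00.

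Snhg15 (chr11:6525591-6528760, minus strand, GRCm38) is a long non-coding RNA that carries the H/ACA snoRNA Snora9. It stood at 12.8, 13.6, 10.4 and 12.3 TPM in control replicates 1 to 4 and at 21.8, 18.9, 22.4 and 19.8 TPM in cKO replicates 1 to 4. Every cKO library lay above every control library, with a gap between 13.6 and 18.9 TPM. The mean rose from 12.3 ± 1.34 to 20.7 ± 1.68 TPM (SD, n = 4), 1.69 times the control level. The fitted change on the log2(TPM + 1) scale was 0.71 with a standard error of 0.0861 and a 95% interval of 0.52 to 0.90 (limma adjusted p = 0.00257, exact two-sided permutation p = 0.0286, the smallest that 8 libraries allow). It ranked 83rd of the 15541 tested rows by size of rise. The call held under all 18 alternatives tried, with changes between 0.57 and 0.76.

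Markers of epicardial and mesenchymal cells were higher in the same libraries. Of 5 epicardial markers 4 were called higher, and their sum ran from 305.6 to 384.9 TPM in cKO and from 248.6 to 280.6 TPM in control. Of 5 mesenchymal markers 4 were called higher, and their sum ran from 612.6 to 757.9 TPM in cKO and from 472.2 to 536.6 TPM in control. Over all tested rows 2.16% were called higher. None of these epicardial and mesenchymal markers was at 0 in all libraries. Of 9 cardiomyocyte markers 7 had a negative change and 3 had groups that did not overlap. Over all 15541 tested rows 8678 had a negative change and 15.6% had groups that did not overlap. The 1 cardiomyocyte marker called was Nkx2-5, a cardiac transcription factor, and it was lower in cKO. It stood at 282 ± 27.7 TPM in control and 205 ± 37.7 TPM in cKO (SD, n = 4, limma adjusted p = 0.0453). The marker calls were not examined under the alternative settings. Of the endothelial, erythroid and macrophage markers tested 0 were called, and 0 had groups that did not overlap. All 5 tested erythroid markers had a negative change (median -0.41) and all 4 tested macrophage markers a positive one (median 0.52). Of 5 endothelial markers 4 had a positive change (median 0.11). The part of these cell types in the level of Snhg15 was not tested, and in bulk tissue fewer cells of a type and less RNA per cell cannot be told apart.

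**Figure D1:**
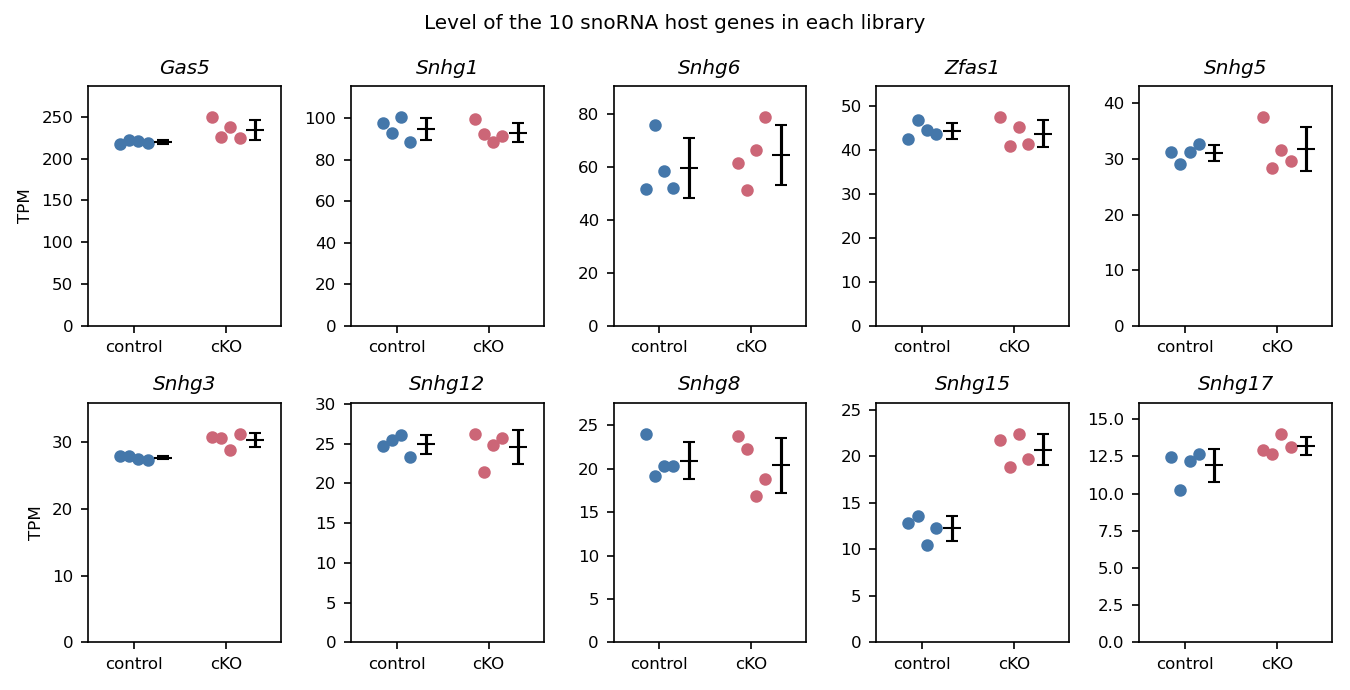
Level of each of the 10 hosts in TPM (vertical axes from 0, a separate scale per gene), with control libraries in blue and cKO libraries in red. Points are libraries in replicate order, and the bar beside each group is the mean with its SD (n = 4). The Snhg15 groups are separated by a wide gap, those of Gas5, Snhg3 and Snhg17 lie side by side without overlap, and the other 6 overlap.

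Gas5 (chr1:161034601-161038539, plus strand), a non-coding RNA named for its rise in growth-arrested cells, was the most abundant host. It stood at 217.2, 222.3, 221.4 and 219.01 TPM in control and at 249.3, 225.5, 237.9 and 224.6 TPM in cKO replicates 1 to 4. The cKO libraries were all above the control libraries, by as little as 224.6 against 222.3 TPM. On the log2 scale the difference was 0.09, with a 95% interval of -0.01 to 0.19 (limma adjusted p = 0.270, exact permutation p = 0.0286). Gas5 made up 39.1% to 41.4% of the summed TPM of the 10 hosts, and that sum was 576 ± 27.1 TPM in cKO and 547 ± 13.4 TPM in control (SD, n = 4).

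Snhg3 (chr4:132351933-132353686, minus strand) hosts Snora73a and Snora73b, H/ACA snoRNAs that differ at 7 of 205 bases. It stood at 27.96, 27.9, 27.5 and 27.4 TPM in control and at 30.7, 30.5, 28.8 and 31.2 TPM in cKO replicates 1 to 4. The control libraries lay within 1 TPM of each other and all below the cKO libraries. On the log2 scale the difference was 0.13, with a 95% interval of 0.02 to 0.23 (unadjusted p = 0.0199, limma adjusted p = 0.131, exact permutation p = 0.0286).

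Snhg17 (chr2:158353700-158361522, minus strand) hosts a pair of H/ACA snoRNAs. It stood at 12.5, 10.2, 12.2 and 12.6 TPM in control and at 12.9, 12.6, 14.01 and 13.1 TPM in cKO replicates 1 to 4. The groups touched, with the highest control and the lowest cKO library both at 12.6 TPM. On the log2 scale the difference was 0.14, with a 95% interval of -0.02 to 0.31 (limma adjusted p = 0.281, exact permutation p = 0.0286). Without control replicate 2, the lowest library, it was 0.08. With Snhg15, Gas5, Snhg3 and Snhg17 had groups that did not overlap, 4 of the 10 hosts, where 15.6% of all tested rows had such groups.

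The remaining 6 hosts had overlapping groups. Snhg1 (chr19:8723487-8726326, plus strand), which carries 8 box C/D snoRNAs, ranged from 88.5 to 100.5 TPM in control and from 88.7 to 99.7 TPM in cKO. Its log2 change was -0.03 with a 95% interval of -0.15 to 0.10. Zfas1 (chr2:167062934-167065862, plus strand), the host of the Snord12 family, ranged from 42.5 to 46.7 TPM in control and from 40.8 to 47.4 TPM in cKO. Its log2 change was -0.02 with an interval of -0.15 to 0.11.

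Snhg12 (chr4:132308678-132311024, plus strand) ranged from 23.4 to 26.1 TPM in control and from 21.5 to 26.2 TPM in cKO, a log2 change of -0.02 with an interval of -0.18 to 0.13. For Snhg1, Zfas1 and Snhg12 the sign turned to positive, at most 0.03, when values were scaled by quantiles, by median ratios or without mitochondrial and globin rows. The intervals of these 3 genes reach at most 0.18 on either side of 0.

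Snhg5 (chr9:88521052-88522897, minus strand), the host of Snord50a and Snord50b, ranged from 29.04 to 32.6 TPM in control and from 28.4 to 37.5 TPM in cKO, a log2 change of 0.03 with an interval of -0.16 to 0.21. The top of its cKO range was replicate 1, and without that library the change was -0.05. Snhg8 (chr3:123507552-123508336, minus strand), the host of Snora24, ranged from 19.2 to 24.03 TPM in control and from 16.8 to 23.7 TPM in cKO, a log2 change of -0.04 with an interval of -0.28 to 0.20. Without cKO replicate 3 the change of Snhg8 was 0.04, and without control replicate 1 it was 0.02.

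Snhg6 (chr1:9942025-9944118, minus strand), the host of Snord87, varied most between libraries. It stood at 51.7, 75.7, 58.2 and 52.1 TPM in control and at 61.5, 51.2, 66.1 and 78.6 TPM in cKO replicates 1 to 4. One library of each group, control replicate 2 and cKO replicate 4, was above 75 TPM. Its coefficient of variation was 19.0% in control and 17.6% in cKO, where the median over tested rows was 7.63% and 8.43%. The log2 change was 0.11 with an interval of -0.20 to 0.43, the widest among the 10 hosts (limma adjusted p = 0.679). Without cKO replicate 4 the change was 0.01, without control replicate 1 or 4 it was 0.05 and 0.06, without cKO replicate 2 it was 0.22, and without control replicate 2 it was 0.23. It was 0.17 after quantile normalization.

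**Figure D2:**
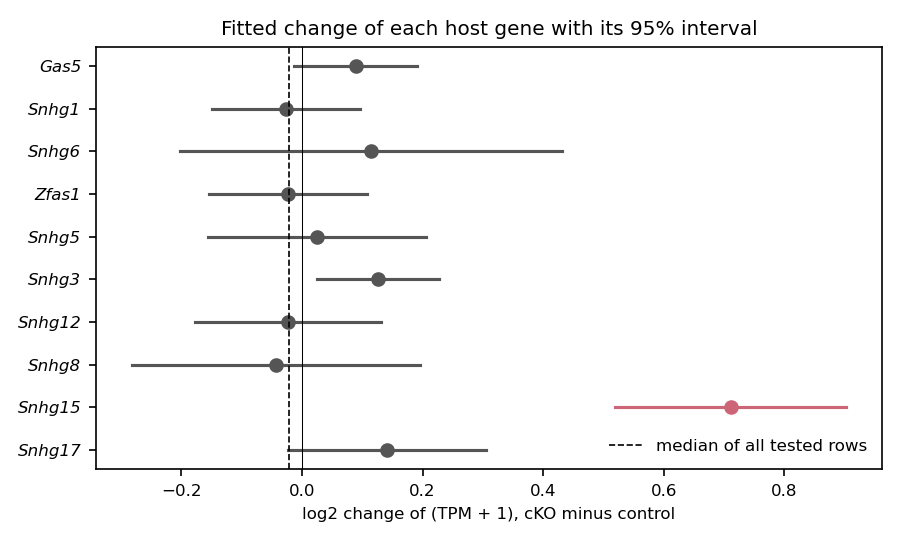
Fitted change of each host, cKO minus control, on the log2(TPM + 1) scale (horizontal axis), with hosts ordered from the highest control level at the top. Points are limma estimates, lines their 95% intervals, red marks an adjusted p under 0.05 and the dashed line is the median of all tested rows. The interval of Snhg15 (0.52 to 0.90) lies to the right of the other 9.

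By level in control the order was Gas5, Snhg1, Snhg6, Zfas1, Snhg5, Snhg3, Snhg12, Snhg8, Snhg15 and Snhg17. From Gas5 down to Snhg5 the ranges of neighbours over the 8 libraries did not overlap. Those of Snhg3 and Snhg12 did not overlap either. Snhg5 and Snhg3 overlapped, as did Snhg12 and Snhg8, Snhg8 and Snhg15, and Snhg15 and Snhg17. In control Snhg15 and Snhg17 stood at 12.3 ± 1.34 and 11.9 ± 1.11 TPM, and in cKO at 20.7 ± 1.68 and 13.2 ± 0.590 TPM (SD, n = 4). The cKO mean of Snhg15 was thus next to that of Snhg8 (20.4 ± 3.16 TPM).

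The snoRNA rows themselves were then examined. Mature snoRNAs are short and lack a poly(A) tail, so reads on these rows may come from unspliced host RNA as well, and while each row lay in an intron of at least 1 GENCODE model of its host, 3 of the 32 lay in an intron of every model that spans them. Of the 32 rows 27 passed the filter on low values, and 0 were called by limma; 5 had an unadjusted p under 0.05, against 23.7% of all tested rows. The median log2 change of the 27 rows was 0.04, with 16 above 0 and 11 below. No other tool was run.

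The row of Snora9 inside Snhg15 (chr11:6528033-6528165, minus strand) had the largest change among them. It stood at 5.65, 4.72, 5.93 and 3.09 TPM in control and at 8.88, 8.16, 12.8 and 6.49 TPM in cKO replicates 1 to 4. The cKO libraries were all above the control libraries. The means were 4.85 ± 1.28 and 9.09 ± 2.68 TPM (SD, n = 4), the log2 change was 0.78 (SE 0.203) and the limma adjusted p was 0.050005, which missed the threshold. The adjusted p ranged from 0.0149 to 0.171 over the alternatives. The row lies in an intron of 2 of the 3 Snhg15 models that span it and overlaps an exon of the remaining model. Its reads may thus be shared with Snhg15, and the 2 changes are not independent.

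In Snhg17 (host 0.14) the rows of Gm24411 and Gm23925 had log2 changes of 0.52 and 0.20 (limma adjusted p = 0.0811 and 0.356). In Zfas1 (host -0.02) the rows of Gm25878, Gm23201 and Snord12 had log2 changes of 0.43, 0.10 and -0.02 (limma adjusted p = 0.131, 0.641 and 0.929). In Snhg1 (host -0.03) the 8 rows ran from -0.23 to 0.42, with 4 above 0. In Snhg3 both Snora73 rows had negative changes (-0.11 and -0.10), while the change of the host was 0.13. In Snhg5 (host 0.03) the rows of Snord50a and Snord50b had changes of 0.00 and -0.31, and in Snhg12 (host -0.02) the 4 rows ran from -0.09 to 0.24.

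In Gas5 the level differed between the snoRNA rows. The 5 rows nearest the 5′ end ranged from 11.03 to 70.3 TPM, with Snord78 highest at 58.2 to 70.3 TPM. The 3 rows nearest the 3′ end, Snord80, Snord47 and Gm25789, ranged from 0.0148 to 0.163 TPM in the 8 libraries. These 3 rows lie in a stretch of Gas5 that another gene overlaps on the other strand, and the 5 rows nearest the 5′ end do not. Snord87 in Snhg6 and Snora24 in Snhg8 did not pass the filter either. Snord87 lies where Mcmdc2 overlaps Snhg6 on the other strand, while Snora24 lies in no such overlap. Whether the handling of strand in counting lowered these rows was not tested. The log2 changes of the 5 tested Gas5 rows ran from -0.18 to 0.11, with a median of 0.01.

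**Figure D3:**
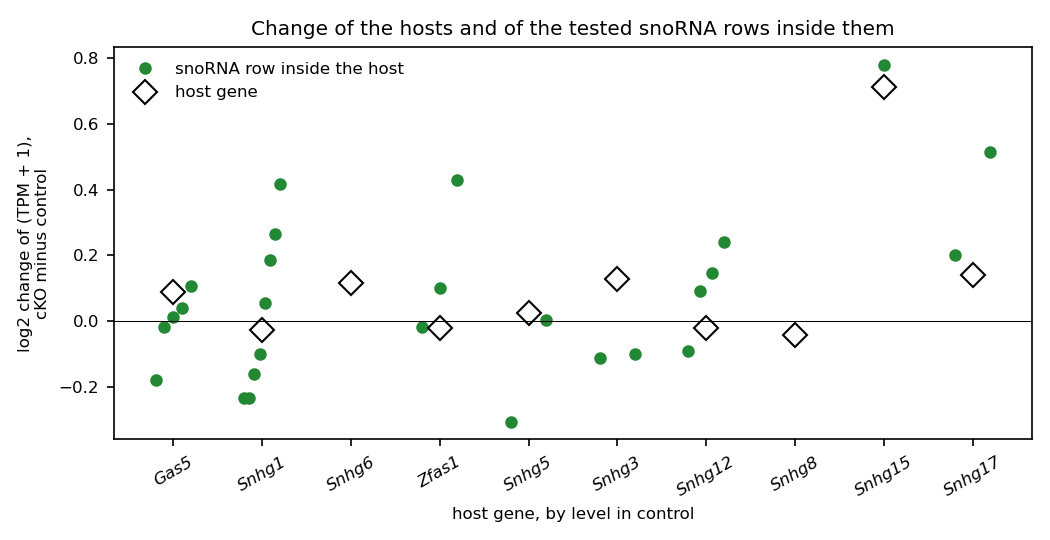
Change of each host (diamonds) and of the tested snoRNA rows inside it (green points), cKO minus control on the log2(TPM + 1) scale (vertical axis), with hosts in order of their control level. Snhg6 and Snhg8 have no tested snoRNA row. In Snhg15 the host (0.71) and the snoRNA row (0.78) lie together above the rest.

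Several hosts overlap or adjoin other genes, and whether counting used strand is not given in the sources used here. Gas5 overlaps Zbtb37 by 264 bases on the other strand, Snhg6 overlaps Mcmdc2 by 1582 bases and Zfas1 overlaps Znfx1 by 82 bases. Slc3a2, a subunit of amino acid transporters, starts 118 bases from Snhg1 on the other strand. The log2 changes of these 4 neighbours were 0.23 for Zbtb37, 0.13 for Mcmdc2, 0.06 for Znfx1 and -0.16 for Slc3a2, with limma adjusted p from 0.178 to 0.724. Snhg15 had no neighbour within 5000 bases of its start and no overlapping row other than its snoRNA.

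Genes around the hosts were compared as lists, whose counts stand against 6.4% called and 23.7% with an unadjusted p under 0.05 among all tested rows. Of 79 cytosolic ribosomal protein genes 0 were called and 10 had an unadjusted p under 0.05, with a median log2 change of 0.03 (-0.01 without cKO replicate 1). Of 17 other mRNAs listed as TOP mRNAs 2 were called, both lower. Eif4b, a translation initiation factor, fell from 214 ± 6.22 to 187 ± 7.82 TPM (SD, n = 4, limma adjusted p = 0.0374). Nap1l1, a histone chaperone, fell from 242 ± 13.8 to 198 ± 19.8 TPM (SD, n = 4, limma adjusted p = 0.0390). The list's median was -0.06. Of 10 regulators of TOP mRNAs 1 was called: Larp1, which binds the TOP tract, fell from 61.9 ± 2.96 to 52.7 ± 3.03 TPM (SD, n = 4, limma adjusted p = 0.0401). The calls in both of these lists were absent after quantile normalization, median-ratio scaling and rescaling without mitochondrial and globin rows. In the 8 fits that left out a library, the regulators had 1 call without cKO replicate 4 and 0 in the others, and the TOP mRNAs had 1 call without cKO replicate 2 or 4 and 0 in the others.

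Of the 8 core proteins of snoRNPs, the particles that snoRNAs form with protein, 0 were called by limma (6.4% of all tested rows) and 3 had an unadjusted p under 0.05 (23.7% of all tested rows). Their median log2 change was -0.14, with 7 of 8 below 0. Nhp2 and Dkc1, both of the H/ACA particle, had the smallest p, with log2 changes of -0.27 and -0.19 (limma adjusted p = 0.131 and 0.151). Of 13 tested snoRNP assembly factors 1 was called: Rpap3, a cofactor of the Hsp90 chaperone, fell from 23.6 ± 0.528 to 19.98 ± 1.03 TPM (SD, n = 4, limma adjusted p = 0.0336). The median of that list was -0.11, and the list had 0 calls under the 3 scalings named above. In the 8 fits that left out a library it had 1 call without cKO replicate 2 and 0 in the others. Of 16 nonsense-mediated decay factors 0 were called and 4 had an unadjusted p under 0.05, with a median of -0.07; Smg5 (-0.17) and Upf1 (-0.20) had the smallest p (limma adjusted p = 0.0626 and 0.0990).

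Hosts were also defined by position alone, as rows that enclose a row with a Snord, Snora or Scarna symbol on the same strand. Of 22 tested non-coding hosts 2 were called, both higher, where 6.4% of all tested rows were called; the median log2 change was 0.07. These were Gm36220, a predicted gene around Snord104, which rose from 4.79 ± 0.294 to 7.49 ± 0.963 TPM, and Snhg18, which rose from 12.7 ± 0.348 to 16.2 ± 1.44 TPM (SD, n = 4, limma adjusted p = 0.0105 and 0.0237). Of 43 other protein-coding hosts 2 were called (again against 6.4%), both lower: Ncapd2, a condensin subunit (-0.30), and Ckap5, a microtubule polymerase (-0.22), with a list median of -0.09. The number called was 0 without cKO replicate 3 and without control replicates 1, 3 or 4. Of 24 ribosomal protein hosts 0 were called by limma and 4 had an unadjusted p under 0.05. Their median was -0.02, and it was 0.02 after quantile normalization, 0.01 after median-ratio scaling, 0.02 after rescaling without mitochondrial and globin rows, 0.02 without cKO replicate 3 and 0.00 without cKO replicate 4. Snhg15 is not among the 22, because its snoRNA row carries a LOC symbol.

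Of the 9 other genes with an Snhg symbol 7 were tested. Snhg18 was the 1 called, with a log2 change of 0.33 (SE 0.0676). It stood at 12.6, 12.2, 12.99 and 12.9 TPM in control and at 18.1, 15.5, 16.5 and 14.8 TPM in cKO replicates 1 to 4, so its groups did not overlap. Its call was lost without a filter on low values, with a replicate block, and without cKO replicate 1 or 3 or control replicate 1, 2 or 3, where the limma adjusted p ran from 0.0555 to 0.0620. Snhg14, the long transcript of the imprinted Snrpn region, had a log2 change of -0.36 with an interval of -0.85 to 0.12, and cKO replicates 3 and 4 (1.22 and 1.82 TPM) lay below the other 6 libraries (3.04 to 3.597 TPM). The changes of Snhg4, Snhg7, Snhg10, Snhg16 and Snhg20 ran from -0.07 to 0.06.

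**Figure D4:**
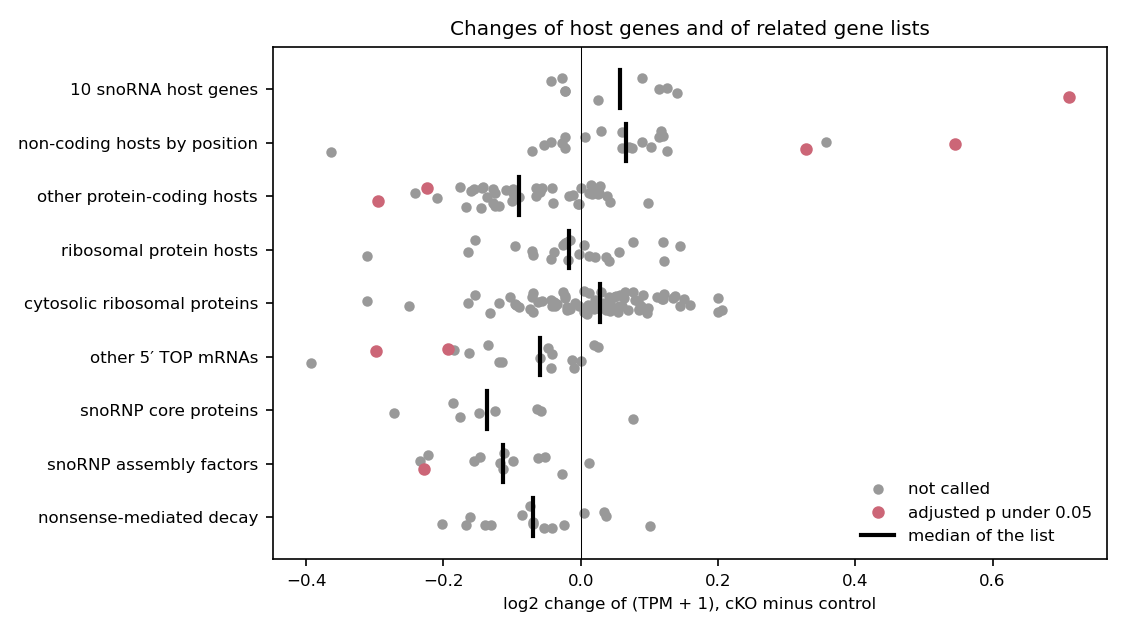
Change of each tested gene, cKO minus control on the log2(TPM + 1) scale (horizontal axis), in the 10 hosts and in 8 related lists. Each point is a gene, red marks a limma adjusted p under 0.05 and the black bar is the median of the list. Some genes stand in several lists, and the non-coding hosts by position include Gas5, Snhg1, Snhg3, Snhg6, Snhg8, Snhg12 and Zfas1. The red point farthest right is Snhg15 (0.71), and the medians of the lists lie between -0.14 and 0.07.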

How the data were processed

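The authors deposited 1 table of TPM values per gene row and library, each column summing to 1000000 within rounding. GRCm38, Trim Galore 0.6.7, HISAT2 2.2.1, StringTie 2.2.1, FastQC, featureCounts and DESeq2 are named per the submitters' processing notes, without roles; the annotation, the strand setting and the step that gave TPM are not given in the sources used here. Of 49589 rows found in RefSeq GRCm38.p6 by symbol and chromosome, 49588 had the same start and end there. Groups and replicate numbers came from the titles. The replicates are stated only as biological replicates, without saying whether they are separate embryos. The p-values therefore set the group difference against the spread between these libraries.

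Values were analysed as log2(TPM + 1), which understates the change of low genes. Rows with a mean of at least 1 TPM were fitted with limma 3.58.1 in R 4.3.3 (2 group means, two-sided moderated test with eBayes and its intensity trend), with Benjamini-Hochberg adjustment over all 15541 rows. Single values had exact permutation tests over 70 assignments (SciPy 1.17.1). The procedure was tested on simulated data. Figures used matplotlib 3.10.9.

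Members and lists were chosen with earlier results of these data known, and the sequence motifs and the rows named by snoRNA biotype were chosen after seeing the data. Named were all members, overlapping or adjacent genes, other Snhg genes, and the called members (at most 6, or the 2 smallest p) of each list and the 3 smallest-p called genes of each host class. Alternatives were other pseudocounts (0.1 and 5), filters, scalings, no trend, a replicate block and leaving out each library. One gene that overlaps a member is not reported here.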

Additional observations from a re-analysis of the deposited data

How the results depend on the processing

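Snhg15 stayed called under the 10 other settings and in the 8 fits that left out a library, and the number of hosts called was 1 in each. Snhg1 (0.0288, 0.000605 and 0.00857), Snhg12 (0.00673, 0.00326 and 0.0110) and Zfas1 (0.0266, 0.00398 and 0.0119) turned positive under quantile normalization, median-ratio scaling and rescaling without mitochondrial and globin rows. Over the fits leaving out a library the log2 change ran from -0.0595 to 0.00126 for Snhg1, -0.0553 to 0.0378 for Snhg12, -0.0618 to 0.00826 for Zfas1, -0.0546 to 0.0745 for Snhg5, -0.117 to 0.0404 for Snhg8, 0.0136 to 0.234 for Snhg6 and 0.0768 to 0.169 for Snhg17, and the hosts' median from 0.00232 to 0.0909.

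Genes called numbered 347 with no filter (140 higher, 207 lower) and 609 without the trend (371 lower). Genes called lower numbered 380, 419 and 394 under the 3 scalings named above. Leaving out a library gave 390 to 938 called, 152 to 341 higher and 229 to 597 lower. The called numbers of assembly factors, TOP mRNAs and TOP regulators were each 0 with no filter, the 3 scalings, no trend and the block, and 0 to 1 over the fits leaving out a library. Under quantile normalization, median-ratio scaling and rescaling the TOP regulator median was -0.00765, -0.0277 and -0.0197 (-0.0683 to -0.0247 leaving out a library), and the decay factor median was -0.0439, -0.0428 and -0.0354. Ribosomal protein genes had 1 call under rescaling and 0 to 1 leaving out a library, as did ribosomal protein hosts in the latter. Non-coding hosts called numbered 1 with no filter, 4 by biotype and 1 to 2 leaving out a library. Other protein-coding hosts called numbered 0 with no filter or no trend, 1 with quantiles, 18 by biotype and 0 to 3 leaving out a library, and their median was -0.0425 with quantiles, -0.0549 under rescaling and -0.0532 by biotype. The cause was not tested. Depth is unknown for TPM, so its limits cannot be given.

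Same-numbered cKO and control libraries did not deviate together (r from -0.09 to 0.07 over 4 pairs), so the numbers give no pairing. With the replicate block 420 genes were called (179 higher, 241 lower), Snhg15 kept its call (limma adjusted p = 0.0212), 1 non-coding host and 0 other protein-coding hosts were called, and 0 assembly factors, TOP mRNAs and TOP regulators were called.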

Other observations

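When snoRNA rows were named by RefSeq biotype instead of symbol, 34 non-coding hosts were tested and 4 were called, all higher: Snhg15, Rian, Gm36220 and Snhg18. Over all tested rows 6.4% were called and 2.16% were called higher. Rian, an imprinted transcript of the Dlk1-Dio3 region that carries many box C/D snoRNAs, averaged 113 ± 7.15 TPM in control and 161 ± 10.8 TPM in cKO libraries (SD, n = 4). Its log2 change was 0.51 (limma adjusted p = 0.00281), with no overlap between groups. By the same definition 18 of 181 other protein-coding hosts were called, 4 higher and 14 lower, against 6.4% of all tested rows. The 3 with the smallest p were Lrrc28 (log2 change 0.60), Ybx3 (-0.42) and Kif13a (-0.26).

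The order of Snhg8 over the cKO libraries was that of the ribosomal protein genes, a comparison picked after the values were seen. Snhg8 stood at 23.7, 22.3, 16.8 and 18.8 TPM in cKO replicates 1 to 4, and the mean log2(TPM + 1) of 79 ribosomal protein genes at 9.82, 9.75, 9.57 and 9.67. Over the 8 libraries, with group means removed, Pearson's r with that mean was 0.93 for Snhg8, 0.75 for Snhg1 and 0.66 for Snhg3, and for the other 7 hosts it lay between -0.38 and 0.41. These values describe 8 libraries that share their scaling, and no test was run. The 5 tested genes most like the mean of the 10 hosts by the same measure were Lrrc29, Ap5b1, Rmdn2, Amd-ps3 and Snord52, with r from 0.93 to 0.97. They are the highest of all tested rows outside the 10 hosts, with Gm, Rik and LOC symbols left out. A search over so many rows in 8 libraries gives high r by selection, so these values show no shared regulation.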
